A study of Mus musculus with 11 samples.

Results

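DNA methylation was examined at 6 genes tied to Hoxa9 and to blood progenitors, Meis1, Myb, Sox4, Kit, Flt3 and Cd34, in a mouse myeloid culture whose Hoxa9 activity is set by estradiol. The genes were taken as fixed mm9 windows, and every CpG listed in a window in any of 11 libraries was kept. This gave 574 CpGs in 113 tiles of 500 bp, of 1480817 CpGs listed on chromosomes 1 to 19 and X. Of these CpGs, 469 had a read in all 11 libraries, and 38 of the 113 tiles passed the depth filter used for tests, of 71062 tiles in all. By gene the tested tiles were 12 for Meis1, 5 for Myb, 7 for Sox4, 8 for Kit, 5 for Flt3 and 1 for Cd34. Gene names stand for windows on the chromosome here. Expression of the genes was not analysed here, so whether the cells carry their transcripts is not known from these values.

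The cells are ER-Hoxa9-Lys-GFP cells of strain C57BL/6, grown in RPMI with serum and medium conditioned for stem cell factor (SCF), with or without estradiol (E2). The line is known as a conditional model: Hoxa9 is fused to the estrogen receptor's ligand-binding region and is active while estradiol is present, and the GFP reporter stands under the lysozyme gene, which is switched on as myeloid cells mature. All 11 libraries come from this line and held 8234933 to 46899896 CpG observations, where an observation is 1 read at 1 CpG. Estradiol was taken away by washing 3 times in PBS. The groups were 1 library kept in estradiol throughout, 2 libraries each of cells without estradiol for 24 h then back in it for 96 h, 40 h then 80 h, 56 h then 64 h, and 72 h then 48 h, and 2 libraries without estradiol for 120 h. Below, each group is named by its hours without estradiol. A longer absence always went with a shorter return, so absence and return cannot be told apart as sources of a difference. Nothing in the labels says that paired libraries came from separate cultures, and the p-values measure only the spread between these libraries, which may be technical.

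Hoxa9 is a homeobox transcription factor that keeps early myeloid cells in a progenitor state. Meis1, a homeobox protein of the TALE class, binds DNA together with Hoxa9. Myb and Sox4 are transcription factors of progenitors, Kit is the receptor for SCF, Flt3 is the receptor for Flt3 ligand, and Cd34 is a surface sialomucin used to mark progenitors. Promoters of such genes often lie in CpG islands, stretches dense in CpG that usually carry little methylation, while CpGs in the surrounding DNA are usually methylated. Reduced representation bisulfite sequencing (RRBS) reads the CpGs near the cut sites of a restriction enzyme and reports, at each, how many reads were methylated.

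The promoter sequences are shown because they fix where the measured CpGs sit. Each is the 250 bases before the RefSeq transcription start (RefSeq table of build GRCm38.p6), printed 5′ to 3′ along the gene, and capitals mark the CpGs that the libraries list. The sequences were placed in mm9 by the spacing of their CpGs, with no conversion of coordinates. The Meis1 sequence lies on the minus strand at chr11:18918973-18919222, Myb on the minus strand at chr10:20880791-20881040, Kit on the plus strand at chr5:75970762-75971011 and Flt3 on the minus strand at chr5:148212066-148212315. The best match rested on 5 listed CpGs for Meis1, 13 for Myb, 9 for Kit and 6 for Flt3, against 2, 3, 2 and 2 at the next best position of the window.
Meis1: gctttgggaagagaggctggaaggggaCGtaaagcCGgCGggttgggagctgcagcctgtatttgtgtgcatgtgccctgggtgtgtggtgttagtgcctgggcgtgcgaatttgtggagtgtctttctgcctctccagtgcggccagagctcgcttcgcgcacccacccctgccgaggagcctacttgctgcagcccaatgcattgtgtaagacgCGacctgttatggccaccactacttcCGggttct
Myb: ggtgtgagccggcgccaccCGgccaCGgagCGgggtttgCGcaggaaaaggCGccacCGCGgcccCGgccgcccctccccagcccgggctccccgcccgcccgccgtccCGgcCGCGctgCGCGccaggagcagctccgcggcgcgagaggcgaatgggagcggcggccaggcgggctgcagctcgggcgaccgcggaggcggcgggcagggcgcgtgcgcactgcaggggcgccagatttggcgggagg
Kit: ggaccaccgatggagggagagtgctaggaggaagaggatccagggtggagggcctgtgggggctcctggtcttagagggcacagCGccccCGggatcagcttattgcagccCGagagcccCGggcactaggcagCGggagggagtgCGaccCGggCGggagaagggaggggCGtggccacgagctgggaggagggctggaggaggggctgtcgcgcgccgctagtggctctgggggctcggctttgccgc
Flt3: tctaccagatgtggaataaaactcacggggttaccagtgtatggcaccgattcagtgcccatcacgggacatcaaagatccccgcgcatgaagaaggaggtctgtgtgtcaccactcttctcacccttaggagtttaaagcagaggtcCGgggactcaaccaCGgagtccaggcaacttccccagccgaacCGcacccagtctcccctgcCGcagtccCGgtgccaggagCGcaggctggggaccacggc
The capitals run in clusters; as background, RRBS covers fragments of limited length between CCGG sites. CCGG, searched in the 250 bases before and 50 after the start (it reads alike on both strands), occurred 2 times for Meis1, 5 for Myb, 3 for Kit, 2 for Flt3, 1 for Cd34 and 0 for Sox4, and 53.1% of 32619 RefSeq promoter sequences of 300 bases held it. The promoter sequences of Cd34 and Sox4 gave no match on at least 4 listed CpGs and were not placed. Annotation of exons and introns in mm9 was not used here, so other positions are given by their distance from the placed start.

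At the marked CpGs methylation was close to absent. All 5 CpGs of the Meis1 sequence were under 5% over all reads (6 methylated of 1162 CpG observations, 0.52%), as were all 13 of Myb (2 of 472, 0.42%), all 9 of Kit (4 of 1153, 0.35%) and all 6 of Flt3 (3 of 2124, 0.14%). No group exceeded 1.79% at any of the 4 promoters, a value reached by Meis1 in the library kept in estradiol, on 56 observations. The depth was least at Myb, with 14 observations in that library. Its CpGs from 20880917 to 20880930 had only 13 or 14 observations each over all libraries, and 0 in continuous estradiol. None was methylated there, but so few observations do not settle a level under 5%. Low methylation is the usual state of a promoter in these libraries: of 6124 genes whose promoter could be placed on at least 8 listed CpGs and had at least 20 observations in every library, 4557 (74.4%) were under 5% in every group, and 17.0% were over 50% in every group. These promoters are a selected set (6540 of 26794 genes with a sequence were placed), and of the 4 shown only Kit meets both limits: Meis1 and Flt3 rest on fewer CpGs, and Myb on fewer observations. Where several promoters of a gene were placed, only the one with the most matched CpGs was kept, which may favour CpG-rich promoters.

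Each CpG island was then taken as a run of tiles with at least 10 listed CpGs. For Myb the run holds the placed promoter. For Meis1 and Kit it overlaps only part of the placed promoter, and the start (18918972 and 75971012) lies just outside it. For Flt3 the run lies beside the promoter tile and was joined to it. For Cd34 and Sox4, whose promoters were not placed, it is the run with the most CpGs in the window, so that these are islands of the window rather than known promoters. All 6 islands were almost free of methylation in all 6 groups: the highest group mean was 2.53%. These levels are percent of reads pooled over the island's CpGs in a library. Intervals are Wilson 95% intervals, and both they and the limits for a count of 0 cover counting error only, since reads from PCR are not independent molecules.

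The Meis1 island (chr11:18919001-18920000, 36 CpGs) was at 0.22% in the library kept in estradiol (1 of 450 observations, interval 0.04 to 1.25). The replicates stood at 0.23% and 0.43% (24 h), 4.48% and 0.0% (40 h), 0.0% and 1.38% (56 h), 1.2% and 0.96% (72 h), and 1.05% and 0.86% (120 h). The 72 h and 120 h libraries lay above the 24 h pair and the estradiol library, by less than 1 point, while the 40 h pair alone spanned all the others. The value of 40 h replicate 1 rests on 12 methylated of 268 CpG observations. These can come from fewer reads, since 1 read can cover several neighbouring CpGs. The mean difference between 120 h and 24 h was 0.62 points, 0.39 with each CpG weighted equally and 0.96 with only CpGs read at least 5 times in every library.

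The Myb island (chr10:20878501-20881500, 87 CpGs) is the longest of the 6 and had the smallest range of group means. It stood at 0.83% in the library kept in estradiol (5 of 603, interval 0.35 to 1.93). The replicates stood at 0.3% and 0.62% (24 h), 0.74% and 0.96% (40 h), 0.72% and 0.79% (56 h), 0.6% and 0.45% (72 h), and 0.51% and 0.43% (120 h). Group means spanned 0.39 points, and the 120 h and 24 h pairs overlapped.

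The Sox4 island (chr13:29044001-29045500, 53 CpGs) was at 0.24% in the library kept in estradiol (1 of 423, interval 0.04 to 1.33). The replicates stood at 1.53% and 0.33% (24 h), 0.0% and 0.28% (40 h), 0.64% and 0.76% (56 h), 1.17% and 0.7% (72 h), and 0.98% and 0.19% (120 h). The 24 h and 120 h pairs overlapped, and the 24 h pair alone spanned more than the group means did (0.8 points).

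The Kit island (chr5:75970501-75971000, 15 CpGs) had the highest group mean of the 6, and was under 3% in each library. It was at 2.53% in the library kept in estradiol (4 of 158, interval 0.99 to 6.33). The replicates stood at 2.5% and 2.12% (24 h), 0.0% and 1.06% (40 h), 2.7% and 1.69% (56 h), 2.38% and 2.52% (72 h), and 1.92% and 1.15% (120 h). The 120 h pair lay below the 24 h pair (mean difference -0.78 points) and below the estradiol library (-1.0 points), and the interval of that library contains the 120 h mean. With only CpGs read at least 5 times in every library the difference from 24 h turned from -0.78 to 0.88 points, so its direction is not settled, and the difference from continuous estradiol became -2.84 points. With each CpG weighted equally they were -0.19 and -0.39 points. The 0.0% at 40 h rests on 63 observations, which allow up to 4.76%. The highest CpGs were a neighbouring pair, at 75970561 (7.4% of 190 observations) and 75970570 (5.7% of 192), while 11 of the 15 CpGs were under 2%.

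The Flt3 island (chr5:148211501-148212500, 25 CpGs) was at 0.0% in the library kept in estradiol (0 of 182, which allows up to 1.65%). The replicates stood at 0.0% and 0.11% (24 h), 0.65% and 0.0% (40 h), 0.0% in both (56 h), 0.21% and 0.81% (72 h), and 0.42% and 0.0% (120 h). The Cd34 island (chr1:196765001-196765500, 14 CpGs) was at 0.96% in the library kept in estradiol (1 of 104, interval 0.17 to 5.25). Its replicates stood at 0.0% and 0.42% (24 h), 0.27% and 0.0% (72 h), and 0.0% in every library at 40 h, 56 h and 120 h, where 0 of 83 observations, the fewest, allow up to 3.61%. In both genes a level above 0 stood on 1 to 5 methylated observations in a group.

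**Figure D1:**
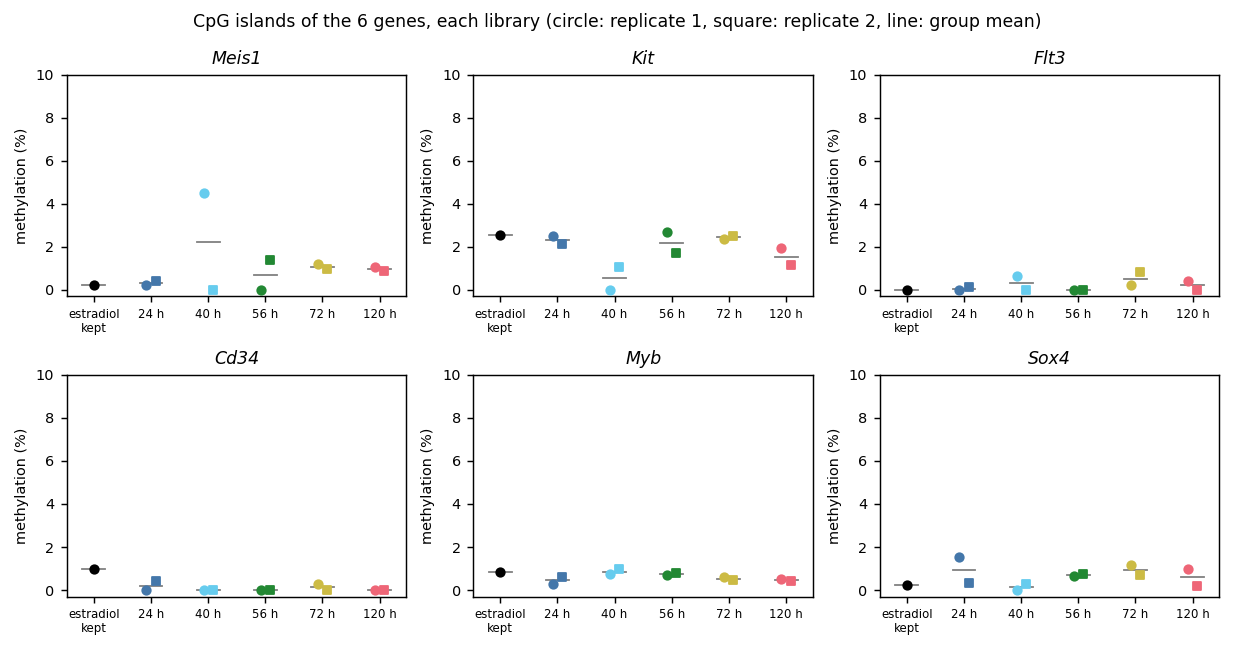
Methylation of the CpG island of each of the 6 genes (percent of reads, y axis) in the 11 libraries, by group (x axis, hours without estradiol; kept, continuous estradiol); circles are replicate 1, squares replicate 2 and lines group means. All points lie under 5%, with Meis1 at 40 h replicate 1 (4.48%) the highest.

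Across the islands 3 CpGs with at least 50 observations exceeded 5%: the Kit pair, and 1 CpG of the Myb island at 20878702 (9.2% of 392 observations). The Myb CpG was above 0 in every group, at 15% in continuous estradiol, 9.5% (24 h), 4.9% (40 h), 12.9% (56 h), 12.1% (72 h) and 6.1% (120 h) (reads pooled per group, 20 to 114 observations). These 3 CpGs were chosen by their level, which is a description.

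Outside the islands, methylated tiles lay close to the border in several genes. In Kit, the tile that ends 500 bp upstream of the island was at 97.8% (2 CpGs, reads of all libraries pooled), and the next methylated tile downstream, 3500 bp away, was at 87.1%. Across the rest of the Kit window, 5 tested tiles between 32.7 and 67.2 kb downstream of the start were at 97.0 to 98.4%. Tiles just downstream of the starts were still unmethylated, at 0.3% and 0.7% at 0.2 and 0.7 kb in Kit and 0.3% at 0.7 kb in Meis1. In Meis1 the methylated DNA began 2000 bp downstream of the island, with a tile at 90.6%, followed by tiles at 97.7%. In Sox4 a tile 1000 bp upstream of the island was at 98.3%. In Flt3 a tile 500 bp upstream was at 52.3% (2 CpGs, 197 observations), while the first tile over 50% downstream lay 9000 bp away, at 97.8%. In Myb and Cd34 the nearest tile over 50% (with at least 100 observations) was farther, 28500 bp away in Myb (98.7%) and 20500 bp away in Cd34 (89.7%). These distances span DNA that was mostly not read. In Cd34 no CpG was listed between 196765281 and 196786249. In Myb the only CpGs listed between 20850065 and 20878595 were 20866111 and 20866219. How far low methylation extends from these islands is therefore not known.

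Unmethylated tiles were also found far from the placed starts of Flt3 and Meis1, and away from the island in Sox4, whose start was not placed. In Flt3, 8 CpGs at 33.8 kb downstream (chr5:148178001-148178500) were at 0.7% over all libraries (3659 observations), between tiles at 98.8% (32.3 kb) and 98.5% (39.3 kb). In Meis1, tiles at 141.2 and 139.7 kb downstream were at 0.8% and 1.5%. In Sox4 low tiles lay beyond the methylated tile upstream of the island: 11 CpGs at chr13:29050001-29050500 were at 0.4%, and 4 CpGs at chr13:29049501-29050000 were at 0.6%. What these stretches are in the annotation is not given here.

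**Figure D2:**
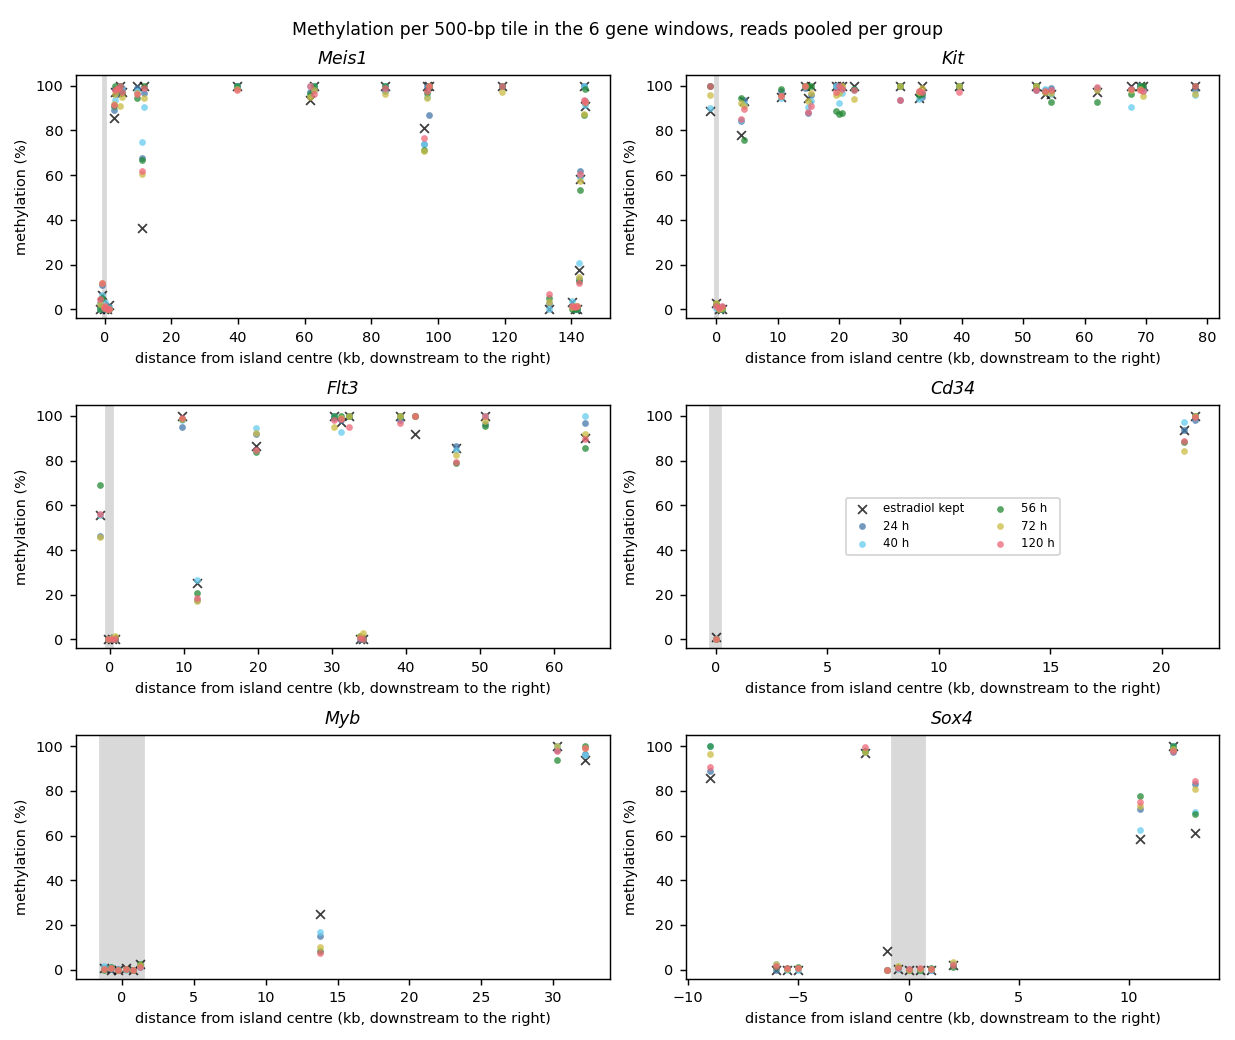
Methylation of each 500-bp tile with at least 100 observations (y axis, percent of reads pooled per group) against its distance from the centre of the island (x axis, kb, downstream to the right, with Sox4 and Cd34 by the strand of the gene) for the 6 genes; crosses are continuous estradiol, points the other groups, and the grey band is the island. Groups lie on top of one another at the unmethylated and fully methylated tiles and spread at partly methylated ones and at tiles with few reads.

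Against all tiles tested, the windows were rich in unmethylated DNA. Of the 38 member tiles, 25 (65.8%) were under 5%, 9 (23.7%) over 90% and 4 (10.5%) between, while of all 71062 tiles 24.6% were under 5%, 50.5% over 90% and 24.9% between. Among tiles with at least 10 CpGs read in every library, 13 of 14 member tiles (92.9%) were under 5%, against 46.0% of all such tiles. By gene, the tiles under 5% were 6 of 12 in Meis1, 5 of 5 in Myb, 7 of 7 in Sox4 and 3 of 8 in Kit. In Flt3 they were 3 of 5 and in Cd34 1 of 1, and 5 of the Kit tiles were over 90%. The windows were picked around genes while the other tiles were not, so the sets are unlike by choice. The member tiles are not independent, since tiles of 1 gene adjoin, and no test was made of these shares.

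Whether methylation at these genes changed with the loss of estradiol was asked in 6 comparisons, each fitted over all 71062 tiles with a quasi-binomial test, with Benjamini-Hochberg adjustment and a threshold of 0.05. No member tile passed in any of them. For 120 h against continuous estradiol, 0 of 38 member tiles were called (0.0% of all tiles were), and 0 had an unadjusted p under 0.05. The count for 72 h against continuous estradiol was 0 of 38 (0.0% of all tiles), with 1 under 0.05. Between 120 h and 24 h it was 0 of 38, against 0.0225% of all tiles (16 tiles: 5 higher at 120 h, 0.00704%, and 11 lower, 0.0155%), with 1 under 0.05 (2.63%, against 6.82% of all tiles). Between 72 h and 24 h it was 0 of 38, against 0.00844% of all tiles (2 higher at 72 h, 0.00281%, and 4 lower, 0.00563%), with 3 under 0.05 (7.89%, against 6.89%). Between 120 h and 72 h it was 0 of 38 (0.0% of all tiles), with 0 under 0.05. For the trend with hours over the 8 returned libraries it was 0 of 38, against 0.00141% of all tiles (1, lower), with 3 under 0.05 (7.89%, against 5.15%). The lowest adjusted p among member tiles was 0.629, for 72 h against 24 h in the quasi-binomial fit. A share of 0 of 38 is near this background in every comparison and is no result about the 6 genes. A second test, limma on log2 ratios of methylated to unmethylated reads, called 0 tiles in any comparison. At an unadjusted p under 0.05 the quasi-binomial fit held 3602, 3786 and 4394 tiles in the comparisons with 0 calls, in the order above.

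The differences behind these tests were small. The median absolute difference of the member tiles was 1.09 points for 120 h against continuous estradiol (1.67 over all tiles), 0.55 for 120 h against 24 h (1.03) and 0.7 for 72 h against 24 h (1.1). The widest were at tiles of Meis1 and Flt3: 120 h minus continuous estradiol ran from -6.9 points (Flt3, chr5:148200001-148200500) to 6.48 points (Meis1, chr11:18916501-18917000), and 120 h minus 24 h from -8.32 points (Meis1, chr11:18777001-18777500) to 6.01 points (Meis1, chr11:18916501-18917000 again). For 72 h against continuous estradiol 1 member tile differed by more than 10 points, Meis1 chr11:18823501-18824000 at -10.28 points (adjusted p = 0.839 in the quasi-binomial fit). The adjusted p of the first 4 was 0.857, 0.857, 0.931 and 0.876, in the order given, in the same quasi-binomial fit. The group kept in estradiol has 1 library, and its spread was taken from the other groups. How closely the fit could see a change depended on the tile: the 95% half-width of the difference between 120 h and 24 h was 0.6 points at the Cd34 island and 8.8 points at the partly methylated Meis1 tile chr11:18776501-18777000, and against continuous estradiol it was 2.5 and 13.9 points.

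**Figure D3:**
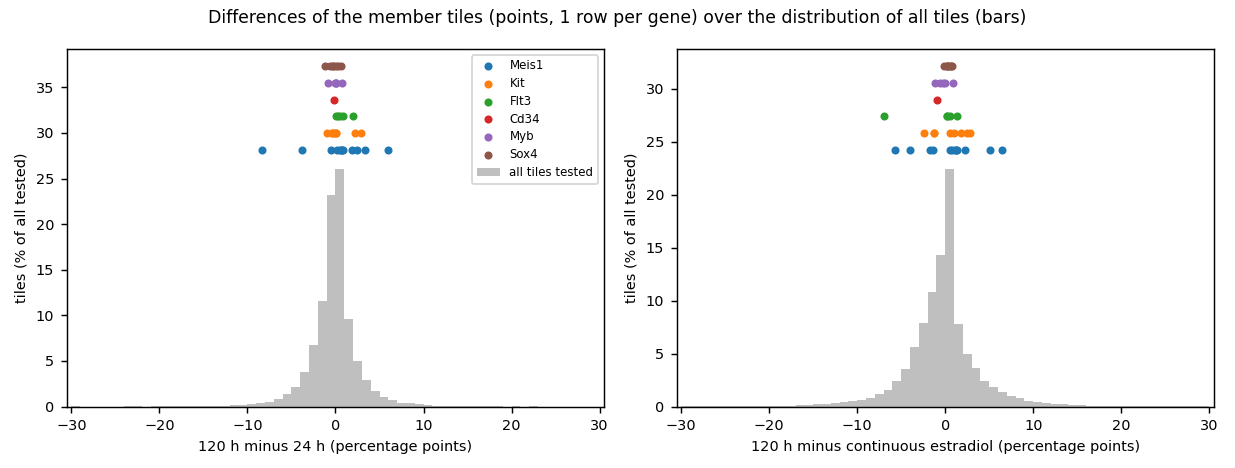
Difference in methylation (x axis, percentage points) between 120 h and 24 h (left) and between 120 h and continuous estradiol (right); grey bars give the share of all 71062 tiles in each 1-point bin (y axis, percent) and the points above them the 38 member tiles, 1 row per gene, placed without regard to the y axis. The member tiles gather near 0 like the rest, and the widest are -8.32 points (Meis1, left) and -6.9 (Flt3) and 6.48 points (Meis1, right).

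The 3 member tiles with the lowest unadjusted p all came from 72 h against 24 h, and each differed by under 5 points. Tested tiles hold only the CpGs read in all 11 libraries, while the island levels above hold every listed CpG. On that basis (17 of its 22 listed CpGs) Meis1 chr11:18919501-18920000, in the island, was at 0.0% in continuous estradiol and in both 24 h libraries, and at 1.0% and 1.5% in the 72 h libraries (difference 1.25 points, p = 0.00229, adjusted p = 0.629 in the quasi-binomial fit). At 120 h it was at 0.5% in both libraries. Among the CpGs of the same stretch left out of the test, Meis1 18919887 held methylated reads at 24 h (16 observations) and was at 4.2% of 72 observations over all libraries. Flt3 chr5:148178001-148178500, the low tile named above, was at 0.0% and 0.1% (24 h) and 1.4% and 1.5% (72 h) (difference 1.42 points, p = 0.00358, adjusted p = 0.702 in the quasi-binomial fit). Kit chr5:76004001-76004500, 9 CpGs at 33.2 kb, was at 94.0% and 95.3% (24 h) and 98.9% and 99.3% (72 h) (difference 4.46 points, p = 0.00411, adjusted p = 0.702 in the quasi-binomial fit), while the continuously treated library stood at 100%. In all 3 tiles the pairs did not overlap, and none passed the adjustment over all tiles.

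Partly methylated tiles, at 5 to 90%, are where a change of either sign could be seen, and they were few: 4 of the 38 tested tiles, 3 in Meis1 and 1 in Flt3. At Meis1 chr11:18776501-18777000 (4 CpGs, 142.2 kb downstream) the continuously treated library stood at 58.3% (interval 46.8 to 69.0, 72 observations), and the group means were 64.4% ± 5.5 (24 h), 59.7% ± 3.5 (40 h), 54.1% ± 8.4 (56 h), 57.8% ± 5.3 (72 h) and 60.6% ± 3.1 (120 h) (SD, n = 2). The libraries ran from 48.1% to 68.3% and the 24 h pair lay above the 56 h pair, while all other pairs overlapped. At Meis1 chr11:18823501-18824000 (5 CpGs, 95.2 kb) the library kept in estradiol was the highest of 11 at 81.2% (64.7 to 91.1, 32 observations), and the means were 74.9% ± 6.4, 73.8% ± 4.0, 71.5% ± 2.9, 71.0% ± 0.9 and 77.3% ± 2.0 in the same order. At 120 h both libraries (75.8% and 78.7%) stood above both of 72 h (70.3% and 71.6%). At Meis1 chr11:18777001-18777500 (141.7 kb, 10 CpGs read in all libraries) the estradiol library was at 17.6%, and the 24 h replicates, 30.2% and 10.3%, differed more than any group means. The difference of -8.32 points between 120 h and 24 h named above rests on the first of these: with the reads of each group pooled it was -1.8 points. At single CpGs the 24 h replicates lay closer, at 85.7% and 83.3% (18777218) and at 54.5% and 40.5% (18777228). Their reads were spread differently, with 22 and 42 observations at 18777228 but 7 and 56 at 18777362, which was at 0.0% and 1.8%. The gap between the replicates therefore mixes the level with the share of reads at each CpG.

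At Flt3 chr5:148200001-148200500 (3 CpGs, 11.8 kb downstream) the continuously treated library stood at 25.3% (17.2 to 35.6, 83 observations). The means were 16.4% ± 3.5 (24 h), 27.5% ± 4.6 (40 h), 20.4% ± 9.7 (56 h), 17.2% ± 1.6 (72 h) and 18.4% ± 0.3 (120 h) (SD, n = 2). Among the pairs, only that of 40 h (30.8% and 24.3%) was apart from the 24 h pair (13.9% and 18.9%). No comparison set 40 h directly against 24 h, so this separation was not tested. In the comparisons that were made, the adjusted p was at least 0.836 in the quasi-binomial fit.

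Read CpG by CpG, levels within the 4 partly methylated tiles differed, in some between close neighbours. In Meis1 chr11:18776501-18777000 the 4 CpGs stood at 53.3%, 67.5%, 91.9% and 27.0% over all libraries. The last 2, at 18776674 and 18776681, are 7 bp apart, were read 270 and 281 times, and the first was the higher in all 11 libraries (71.4 to 100% against 13.3 to 44.7%). In Meis1 chr11:18777001-18777500 the level stepped down along the CpGs read in all libraries: 84.7% at 18777218, 42.2% at 18777228, 42.6% at 18777235, 4.1% at 18777269, 7.4% at 18777279 and at most 0.9% at the next 5. Over these CpGs this is an edge of the unmethylated stretch at 141.2 kb. Earlier in the tile the CpGs from 18777040 to 18777049, not read in all libraries, were at 0.0 to 10.0% on 9 or 10 observations each. In the Flt3 tile the CpGs were at 26.3%, 28.9% and 2.9%, the last pair 22 bp apart. In Meis1 chr11:18823501-18824000 the level was 87.9% at the first CpG and then, over 4 CpGs spaced 4 to 8 bp, 53.3%, 63.3%, 73.4% and 85.2%.

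The sharpest contrast lay just upstream of the Meis1 island, at 1 CpG with low levels on both sides. In chr11:18920001-18920500, 1.3 kb upstream of the start, the CpGs at 18920058, 18920061, 18920064 and 18920068 were at 0.0 to 0.6% (154 to 156 observations each), and the CpG at 18920074, 6 bp further, was at 97.2% (71 observations). It was at 100% in 9 of the 11 libraries, on 2 to 17 reads in each. It was at 93.8% at 120 h replicate 1 and 0.0% at 56 h replicate 2, where it had 1 read. As a whole this tile ran from 0.0% to 26.5%, and the value moved with the share of reads at that CpG: 72 h replicate 1 was at 3.4% with 3 of 88 observations there, and 72 h replicate 2 at 26.5% with 13 of 49. Farther upstream the level was low again: 0.5% at 18920669, 0.0% at 18920677 and 6.3% at 18920788 (175 to 184 observations each). By a measure chosen after seeing the data, such contrasts between neighbours were no more frequent here than elsewhere. Of 314 pairs of adjacent CpGs in the windows at most 50 bp apart, each with at least 50 observations, 2 (0.64%), both in Meis1, differed by 50 points or more, against 10410 of 768770 pairs (1.35%) over all CpGs.

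In Myb 1 tile, outside the tests because it holds 2 CpGs, had its highest level in the library kept in estradiol and its lowest group mean at 120 h. It was chosen after its values were seen. At chr10:20866001-20866500, 14.5 kb downstream, the estradiol library was at 25% (interval 13.3 to 42.1, 32 observations). The replicates stood at 16.3% and 14.5% (24 h), 10.0% and 21.2% (40 h), 0.0% and 22.2% (56 h), 4.7% and 16.7% (72 h), and 8.6% and 5.7% (120 h). The 120 h pair lay below the 24 h pair, and the 56 h and 72 h pairs spanned both. In a fit extended to tiles of 2 CpGs with at least 10 observations in every library (137344 tiles, chosen after seeing the data), 120 h minus continuous estradiol was -17.84 points (p = 0.0422, adjusted p = 0.836 in the quasi-binomial fit). In the same quasi-binomial fit, 120 h minus 24 h was -8.22 points (p = 0.0701, adjusted p = 0.719). Nearly all of the methylation was at 1 of the 2 CpGs, 20866111, at 20.6% over all libraries against 2.3% at 20866219. At that CpG the estradiol library held 53.8% (13 observations, interval 29.1 to 76.8), while the other libraries ran from 0.0% (56 h replicate 1, 19 observations) to 46.7% (40 h replicate 2, 15 observations) and the 120 h pair was at 17.2% and 10.9%.

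**Figure D4:**
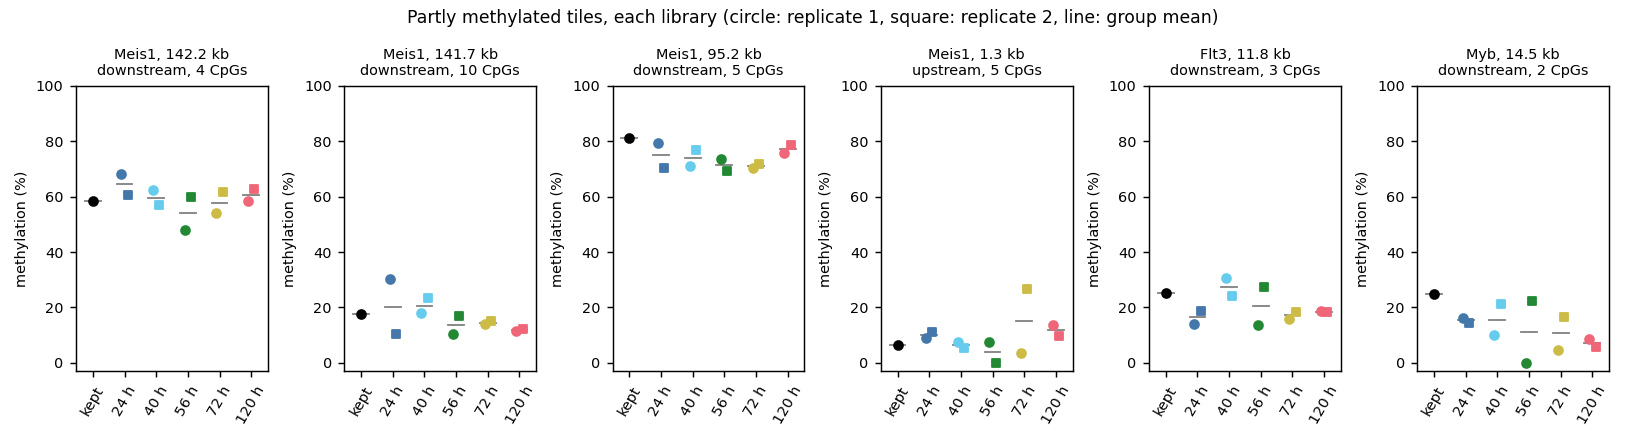
Methylation (y axis, percent of reads) of the 6 member tiles at 5 to 90% that have at least 2 CpGs and 10 observations in every library, by group (x axis, hours without estradiol; kept, continuous estradiol); circles are replicate 1, squares replicate 2 and lines group means. Replicates of 1 group differ by as much as the groups do in most panels; the Myb tile has its highest point in continuous estradiol (25%).

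A wider list of 24 genes tied to Hoxa9 or to progenitors held no called promoter tile where it could be read. Promoters of 8 of them could be placed on at least 8 listed CpGs, chosen within a gene as above: Gata2, Hlf, Cdk6, Bcl2, Foxp1, Trib2, Pim1 and Runx1. Of their 11 tested promoter tiles, 0 rose and 0 fell in any of the 6 comparisons, against 0.0 to 0.0225% of all tiles called, and 7 of the 8 promoters were under 5% in every group, against 74.4% of the 6124 placed promoters. Both counts are near those shares and set the list apart in nothing. The promoter over 5% was that of Cdk6, which encodes a cyclin-dependent kinase of the G1 phase. With the reads of each group pooled, its promoter CpGs were at 31.58% in continuous estradiol, 29.91% (24 h), 21.14% (40 h), 42.86% (56 h), 30.59% (72 h) and 35.22% (120 h), and its lowest adjusted p was 0.92. Since none of the 4 placed member promoters reached 5% in any group, any unmethylated promoter would be as like them as the next, and no gene of like pattern is named.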

How the data were processed

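Reduced representation bisulfite libraries were made from purified genomic DNA, per the labels' protocols, which also mention transposed nuclei, a step not used here. The deposited files list, per CpG of mm9 (per the submitters' processing notes), the methylated and total read counts, and a score that the authors' files give as 1000 times the methylated share, which held in 100% of lines. The aligner, caller and duplicate handling are not given in the sources used here. Libraries held 8234933 to 46899896 CpG observations, and 3280 to 20238 in the windows.

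A tile of 500 bp was tested if it held 3 or more CpGs read in all 11 libraries and 20 or more observations per library. The test was a quasi-binomial logistic fit of methylated against unmethylated reads, 1 mean per group (deviance F test, two-sided; dispersion moderated with limma 3.58.1 in R 4.3.3, not below 1; Benjamini-Hochberg over all tiles, threshold 0.05). Differences in the text are between library means, while the test weights by reads. Half-widths are approximate. The procedure was tested on simulated data. Tables were made with Python 3.11.15, numpy 2.4.6, scipy 1.17.1 and pandas 2.3.3, and figures with matplotlib 3.10.9. Alternatives changed the depth, tile, dispersion, test, pairing and islands. Named within each gene were tiles past the threshold (0), the up to 3 tested tiles whose group means ranged most widely and the promoter tile; others were chosen after their values were seen. Members and lists were chosen with earlier results of these data known. Same-numbered libraries were not paired (correlations of their deviations -0.015 to 0.044). Some genes of the wider list are not reported here.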

Additional observations from a re-analysis of the deposited data

How the results depend on the processing

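Each of the 6 comparisons was repeated under other settings, and counting every comparison under every setting gave 107 results. No member tile was called in any of them (5 to 56 member tiles tested, lowest adjusted p 0.28, in the quasi-binomial fit). In many of these results no tile of any gene was called, so this says nothing about stability. The counts over all tiles moved. For 120 h against 24 h, 72 h against 24 h and the trend, reported as 16, 6 and 1, the counts were 0, 0 and 0 with CpGs of at least 10 reads in all libraries, 124, 94 and 0 with that depth only in the libraries compared and fitted, and 0, 0 and 0 with limma. The first pair of counts was 2 and 1 with at least 50 observations per library, 25 and 14 with tiles shifted by 250 bp, and 43 and 26 with 2 CpGs and 10 observations per tile, a setting chosen after seeing the data. The comparisons with 0 calls gave 53 (120 h against 72 h, depth in the libraries compared), 1 (120 h against continuous estradiol, no lower limit on the dispersion), and with 2 CpGs per tile 3 (120 h against continuous estradiol), 1 (72 h against continuous estradiol) and 1 (120 h against 72 h). Leaving out each library gave 0 to 16 for 120 h against 24 h (0 without either 120 h library or 24 h replicate 2, 1 without 24 h replicate 1 or either 72 h library, 6 without either of 56 h, 8 without either of 40 h), 0 to 6 for 72 h against 24 h (0 without any 24 h, 72 h or 120 h library), 0 to 1 for the trend and 0 for the rest. With the replicate block the counts were 0, 0 and 0; the numbers do not pair the libraries, and continuous estradiol has 1 library, so its comparisons allow no block. The cause of these moves was not tested.

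Of 142 alternatives for 24 differences between groups by region, 23 moved by more than the larger replicate SD, and the largest island difference was 2.84 points in size (Kit, 120 h against continuous estradiol, CpGs of at least 5 reads) against 1.0 as reported. At 15 listed CpGs per tile Cd34 has no island and gave no value. Outside the islands, 120 h minus continuous estradiol went from 3.07 to -0.1 points in Meis1, from 3.51 to -0.06 in Flt3 and from -6.74 to 1.6 in Myb when each CpG had equal weight. With CpGs of at least 5 reads these were -1.15, -1.8 and -17.84. The Myb value equals that of the Myb tile with 2 CpGs described above, which was chosen after its values were seen. It is therefore not taken as a separate result.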
